A study of Mus musculus with 9 samples.

Results

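The Bcl2 family sets whether the mitochondrial route of apoptosis is open. Its survival proteins hold the pore-forming effectors and the BH3-only proteins in check by binding them. BH3-only proteins are the sensors of stress and lost growth signals: they occupy the survival proteins or engage the effectors, which then permeabilise the mitochondrial outer membrane and release cytochrome c. Tumour cells often tolerate BH3-only proteins because they carry enough survival protein, so the balance between the groups is followed as closely as any single gene.

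The genes described here are 10 family members taken by symbol from a table of 15768 genes, with the classical p53 targets of the family (Bax, Bbc3 and Pmaip1) left out of the set. Bcl2, Bcl2l1 (Bcl-xL), Bcl2l2 (Bcl-w) and Mcl1 are survival genes, Bak1 and Bok are effectors, and Bid, Bad, Bcl2l11 (Bim) and Bmf are BH3-only genes. All 10 were in the table and all 10 passed the filter used for testing, which asked for at least 1 FPKM (fragments scaled by gene length and library size) in at least 3 of the 9 libraries. Bmf passed with 4 libraries, the 3 of LLC1 and 1 of SCC1. The filter thus kept Bmf mainly for its LLC1 values, and its calls against LLC1 carry no weight in any result below.

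RNA-seq libraries came from SCC1 and SCC2, subclones grown from single cells of the mouse Lewis lung carcinoma line LLC1 by limiting dilution, and from LLC1 itself, with 3 libraries for each line. All cells carried the genotype label WT, were untreated and grew in the same serum-containing medium, the subclones for 5 to 8 passages. Each subclone is 1 clone, so a difference between a subclone and LLC1 cannot be told apart from a difference between any 1 LLC1 cell and the population. Separate cultures are not named in the labels for the 3 libraries of a line, so the spread behind each p-value may be only technical.

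Libraries held 17094808 to 19398657 fragments as worked back from the FPKM values, and 227 to 447 of these fell on Bid, 72 to 169 on Bmf and 2370 to 2707 on Mcl1. Of the lung epithelial markers Krt8 and Krt18 were abundant, while Sftpc, Nkx2-1 and Cdh1 stayed under 1 FPKM in all libraries, so of 5 lung epithelial markers measured only the keratins were found. The summed level of these 5 was 445 to 455 FPKM in SCC1 and 231 to 232 FPKM in SCC2, against 332 to 341 FPKM in LLC1, the same order of lines as for Bcl2l1 below. The 3 leukocyte markers and the 3 endothelial markers measured were under 1 FPKM in every library. Of 5 fibroblast markers, Col1a1 and Col1a2 stayed under 1 FPKM in all libraries, and Lum reached 1.17 FPKM in its highest library. Pdgfra averaged 3.35 FPKM in SCC1 and 3.04 FPKM in SCC2, against 5.18 FPKM in LLC1. Dcn averaged 2.34 FPKM in SCC1 and 2.10 FPKM in SCC2, against 3.02 FPKM in LLC1. The summed level of the 5 ran from 5.95 to 6.27 FPKM in SCC1 and from 6.08 to 6.77 FPKM in SCC2, against 9.07 to 10.1 FPKM in LLC1. The part of these markers in the results below was not tested.

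The promoters of the 4 members with the largest changes against LLC1 are shown first. Of these, Bid rose in SCC1, and Bcl2l1 and Bcl2l11, both on chromosome 2, fell in SCC2. Bmf, also on chromosome 2, is shown beside them, but its fall against LLC1 carries no weight. Each window runs from 250 bases before to 50 bases after a transcription start site of RefSeq on GRCm38.p6, read 5′ to 3′ on the strand of the gene, and where RefSeq had several start sites the one nearest the GENCODE M21 gene start was taken. Capitals mark matches, on either strand, to any of 7 motifs: the FOXO core GTAAACA, the E-box CACGTG, the cyclic AMP response element TGACGTCA, the GC box GGGCGG, the E2F-like TTCCCGC, the STAT-type TTCNNNGAA and the ETS core CCGGAAG.
Bid, chr6:120916775-120917074, minus strand: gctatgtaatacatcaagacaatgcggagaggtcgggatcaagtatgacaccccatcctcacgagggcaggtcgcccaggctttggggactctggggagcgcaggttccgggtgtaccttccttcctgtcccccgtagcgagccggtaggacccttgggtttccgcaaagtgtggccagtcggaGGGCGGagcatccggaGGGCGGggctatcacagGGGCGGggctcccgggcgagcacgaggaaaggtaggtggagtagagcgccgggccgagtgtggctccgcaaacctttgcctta
Bcl2l1, chr2:152831679-152831978, minus strand: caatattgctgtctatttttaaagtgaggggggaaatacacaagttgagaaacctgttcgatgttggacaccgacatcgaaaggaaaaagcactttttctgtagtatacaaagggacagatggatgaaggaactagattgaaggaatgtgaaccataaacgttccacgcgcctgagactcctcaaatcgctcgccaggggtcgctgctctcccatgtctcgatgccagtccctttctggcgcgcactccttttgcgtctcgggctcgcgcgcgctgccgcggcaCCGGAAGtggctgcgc
Bcl2l11, chr2:128125788-128126087, plus strand: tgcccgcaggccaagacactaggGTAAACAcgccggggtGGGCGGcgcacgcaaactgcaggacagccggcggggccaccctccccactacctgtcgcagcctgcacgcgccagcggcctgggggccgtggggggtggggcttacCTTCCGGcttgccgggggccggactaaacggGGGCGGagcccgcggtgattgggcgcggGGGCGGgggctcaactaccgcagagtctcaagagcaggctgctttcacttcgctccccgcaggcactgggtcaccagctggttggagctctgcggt
Bmf, chr2:118549637-118549936, minus strand: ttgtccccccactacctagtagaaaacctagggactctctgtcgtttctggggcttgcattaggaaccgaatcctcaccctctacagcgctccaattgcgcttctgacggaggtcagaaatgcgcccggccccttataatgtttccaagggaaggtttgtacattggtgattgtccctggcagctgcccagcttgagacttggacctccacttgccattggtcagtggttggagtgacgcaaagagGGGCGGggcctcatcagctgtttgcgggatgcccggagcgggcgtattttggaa

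Bid had 3 GC boxes, Bcl2l11 had 3 and Bmf had 1, a motif found in 35.7% of the 32851 promoter windows of the RefSeq table. An ETS core stood in the windows of Bcl2l1 and Bcl2l11 (8.86% of all windows), and Bcl2l11, whose gene is a known target of FOXO factors, had 1 FOXO core (3.65% of all windows) beginning 227 bases before the start site. No motif was common to Bcl2l1, Bcl2l11 and Bmf, the 3 members on chromosome 2. A match is a run of letters, not a bound site, and a window without one says nothing about the factor. The window of Bcl2l11 was 71.0% G or C with 27 CpG dinucleotides, that of Bcl2l1 52.3% with 22, that of Bid 63.3% with 22 and that of Bmf 55.3% with 13, against medians of 52.7% and 7 over all windows.

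The survival genes come first. Bcl2l1 encodes Bcl-xL, which holds Bak1, Bax and BH3-only proteins at the outer membrane. It had 23.01, 23.30 and 22.90 FPKM in the SCC1 libraries and 12.57, 12.48 and 11.99 FPKM in the SCC2 libraries, against 19.02, 19.01 and 18.93 FPKM in the LLC1 libraries. The 3 lines did not overlap: every SCC1 library was above, and every SCC2 library below, all libraries of LLC1. On the log2(FPKM + 1) scale, which is used for all changes below and understates those of low genes, Bcl2l1 rose by 0.27 in SCC1 against LLC1 (SE 0.0266, limma adjusted p = 3.08e-06, 95% interval 0.21 to 0.33). In SCC2 it fell by 0.58 (SE 0.0266, limma adjusted p = 5.66e-09, 95% interval -0.64 to -0.52), at 0.650 times the FPKM of LLC1. The change was -0.85 in SCC2 against SCC1 (SE 0.0266, limma adjusted p = 9.60e-11), or 0.535 times. Since whole cultures were measured, fewer cells with the transcript and less transcript per cell cannot be told apart here or in any result below.

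Mcl1 encodes a short-lived survival protein that binds Bim and Bak1 tightly. Its level was 15.62, 14.86 and 15.22 FPKM in SCC1 and 16.19, 16.62 and 15.64 FPKM in SCC2, against 15.77, 15.85 and 15.88 FPKM in LLC1. The SCC2 and LLC1 libraries overlapped, and the SCC1 libraries lay just below those of LLC1. Neither subclone passed the threshold against LLC1: the change was -0.05 in SCC1 (95% interval -0.12 to 0.01, limma adjusted p = 0.146) and 0.03 in SCC2 (95% interval -0.04 to 0.09, limma adjusted p = 0.457). Both intervals lie wholly nearer to 0 than that of Bcl2l1 in SCC2. Mcl1 rose between the subclones by 0.08 (limma adjusted p = 0.0335), a call that was lost without SCC1 replicate 2 (0.120) or 3 (0.0686) and without SCC2 replicate 1 (0.0737) or 2 (0.129).

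Bcl2, the founding member, which was identified at a lymphoma translocation, was lower in SCC1. Its 3 SCC1 libraries had 8.58, 8.98 and 8.71 FPKM and its SCC2 libraries 10.6, 9.96 and 9.84 FPKM, against 9.58, 10.5 and 10.8 FPKM in LLC1. SCC1 lay below all LLC1 libraries, with a change of -0.21 (SE 0.0444, limma adjusted p = 0.00125), while SCC2 overlapped LLC1 (-0.02, 95% interval -0.12 to 0.08, limma adjusted p = 0.711). Bcl2 rose by 0.19 in SCC2 against SCC1 (limma adjusted p = 0.00204). Bcl2l2, whose protein Bcl-w is best known for its need in male germ cells, moved in the other subclone. It had 7.16, 7.49 and 7.25 FPKM in SCC1 and 9.80, 9.55 and 9.001 FPKM in SCC2, against 7.42, 7.79 and 7.47 FPKM in LLC1. It rose by 0.29 in SCC2 against LLC1 (SE 0.0380, limma adjusted p = 3.73e-05) and by 0.33 in SCC2 against SCC1, and in SCC1 the change was -0.05 (95% interval -0.13 to 0.04, limma adjusted p = 0.308). A read-through gene, Gm20521, shares the Bcl2l2 locus and strand in GENCODE M21, so reads of Bcl2l2 are uncertain to that extent.

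**Figure D1:**
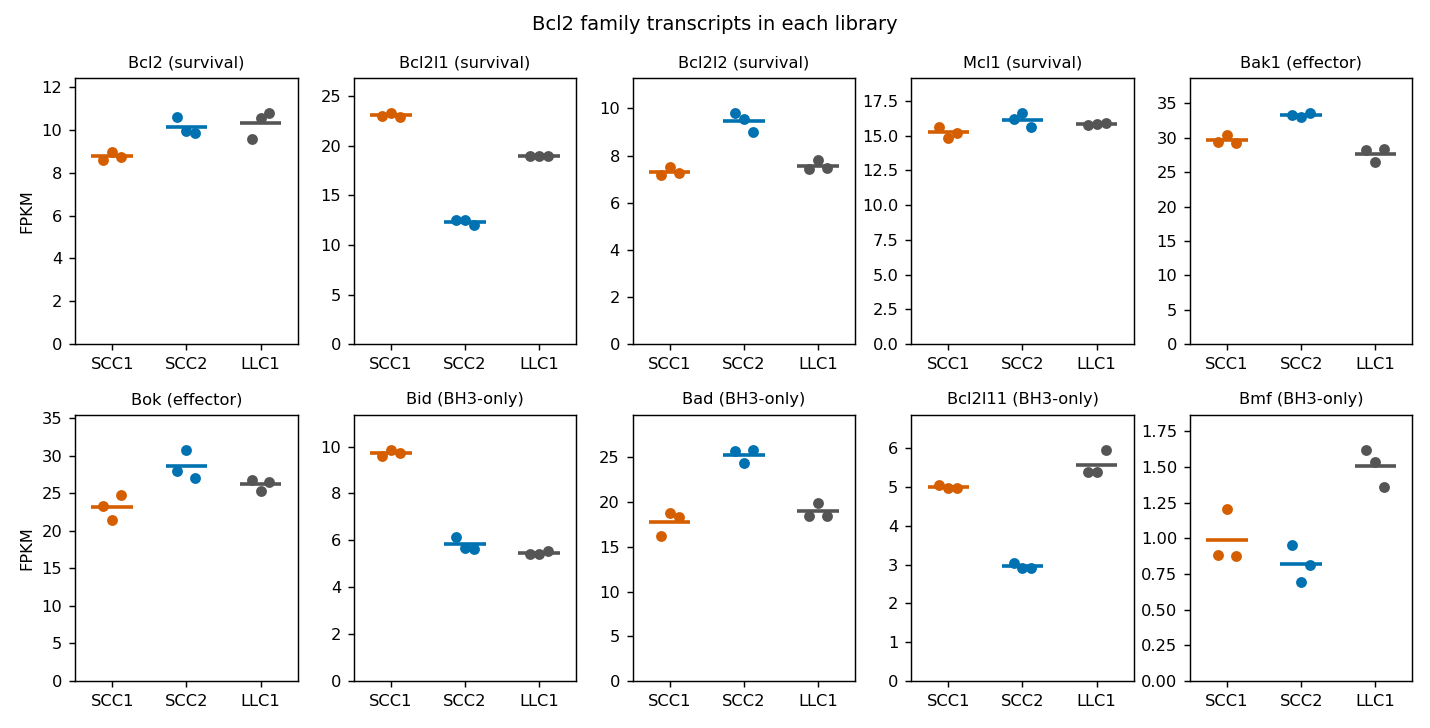
FPKM of each of the 10 members in the 3 libraries of SCC1, SCC2 and LLC1 (points, with the mean of each line as a bar and every axis starting at 0). Bcl2l1 separates all 3 lines, at 23.1 FPKM in SCC1, 12.3 FPKM in SCC2 and 18.99 FPKM in LLC1, while Mcl1 stays between 14.9 and 16.6 FPKM in all 9 libraries.

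The effectors changed by 0.30 or less in every comparison. Bak1, which oligomerises in the mitochondrial outer membrane, was the member with the most FPKM in each line. Its libraries had 29.4, 30.3 and 29.3 FPKM in SCC1 and 33.3, 33.0 and 33.6 FPKM in SCC2, against 28.2, 26.5 and 28.3 FPKM in LLC1. Both subclones lay above LLC1 without overlap. The rise was 0.10 in SCC1 (SE 0.0287, limma adjusted p = 0.00991), which was lost with quantile normalization (adjusted p = 0.110) and once chromosome medians were removed (0.247), and 0.26 in SCC2 (SE 0.0287, limma adjusted p = 8.82e-06). Ggnbp1 overlaps Bak1 on the opposite strand and had a median of 1.51 FPKM over the 9 libraries. Bok, an effector relative that the survival proteins restrain little, had 23.3, 21.4 and 24.7 FPKM in SCC1 and 28.04, 30.82 and 27.11 FPKM in SCC2, against 26.8, 25.3 and 26.6 FPKM in LLC1. It fell by 0.17 in SCC1 against LLC1 (limma adjusted p = 0.0122, but 0.0559 without SCC1 replicate 2). The change of 0.12 in SCC2 against LLC1 did not pass (95% interval 0.0049 to 0.24, limma adjusted p = 0.0615), and it rose by 0.30 in SCC2 against SCC1 (limma adjusted p = 3.12e-04).

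Among the BH3-only genes, Bid had the largest rise of the set. Its protein is cut by caspase-8, and the cut form carries the death receptor signal to mitochondria. It had 9.60, 9.86 and 9.74 FPKM in SCC1 and 6.15, 5.69 and 5.65 FPKM in SCC2, against 5.40, 5.41 and 5.53 FPKM in LLC1. SCC1 stood far above both other lines, and SCC2 just above LLC1. Bid rose by 0.74 in SCC1 against LLC1 (SE 0.0371, limma adjusted p = 9.56e-09), at 1.79 times the FPKM of LLC1, and 96.1% of the 10519 tested genes had a smaller change in either direction. In SCC2 the change was 0.08 (95% interval 0.0015 to 0.16, limma adjusted p = 0.0667), and in SCC2 against SCC1 it fell by 0.65 (limma adjusted p = 1.44e-08). Bcl2l13, another family gene, overlaps Bid on the opposite strand. It rose by 0.14 in SCC1 (limma adjusted p = 0.00641) at 10.3 ± 0.306 FPKM, against 9.25 ± 0.388 FPKM in LLC1 (SD, n = 3 each). The deposited values come with no word on strand in counting, so reads of this pair may be mixed.

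Bcl2l11 encodes Bim, which binds all survival proteins and is needed for death after growth factor withdrawal. Its libraries had 5.07, 4.99 and 4.97 FPKM in SCC1 and 3.05, 2.92 and 2.92 FPKM in SCC2, against 5.38, 5.39 and 5.97 FPKM in LLC1. The lines did not overlap, and SCC2 was the lowest by a wide margin. In SCC2 it fell by 0.73 against LLC1 (SE 0.0433, limma adjusted p = 4.66e-08), at 0.531 times the FPKM of LLC1, and by 0.60 against SCC1 (limma adjusted p = 1.16e-07). In SCC1 it fell by 0.13 against LLC1 (limma adjusted p = 0.0182), a call lost without LLC1 replicate 3 (0.0818), the highest of the LLC1 libraries.

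Bmf, which reports loss of attachment and is held by the cytoskeleton in healthy cells, was the member with the fewest FPKM. It had 0.886, 1.21 and 0.873 FPKM in SCC1 and 0.951, 0.691 and 0.816 FPKM in SCC2, against 1.62, 1.54 and 1.36 FPKM in LLC1. Both subclones lay below LLC1 without overlap, and they overlapped each other. The fall was 0.34 in SCC1 (SE 0.077, limma adjusted p = 0.00211) and 0.46 in SCC2 (limma adjusted p = 2.22e-04), at 0.656 and 0.544 times the FPKM of LLC1. Since the LLC1 libraries, where Bmf is high, were enough for the filter, these calls and the lack of overlap carry no weight. The change of -0.13 in SCC2 against SCC1 did not pass (95% interval -0.30 to 0.04, limma adjusted p = 0.154).

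Bad, which growth factor kinases keep phosphorylated and bound to 14-3-3 proteins, was higher in SCC2. It had 16.3, 18.8 and 18.4 FPKM in SCC1 and 25.7, 24.3 and 25.9 FPKM in SCC2, against 18.5, 19.9 and 18.5 FPKM in LLC1. SCC2 stood above all other libraries, and SCC1 and LLC1 overlapped. Bad rose by 0.40 in SCC2 against LLC1 (SE 0.0501, limma adjusted p = 2.47e-05) and by 0.48 against SCC1 (limma adjusted p = 2.86e-06), while in SCC1 the change was -0.09 (95% interval -0.20 to 0.02, limma adjusted p = 0.142). Gpr137 overlaps Bad on the opposite strand, with a median of 9.91 FPKM over the 9 libraries.

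**Figure D2:**
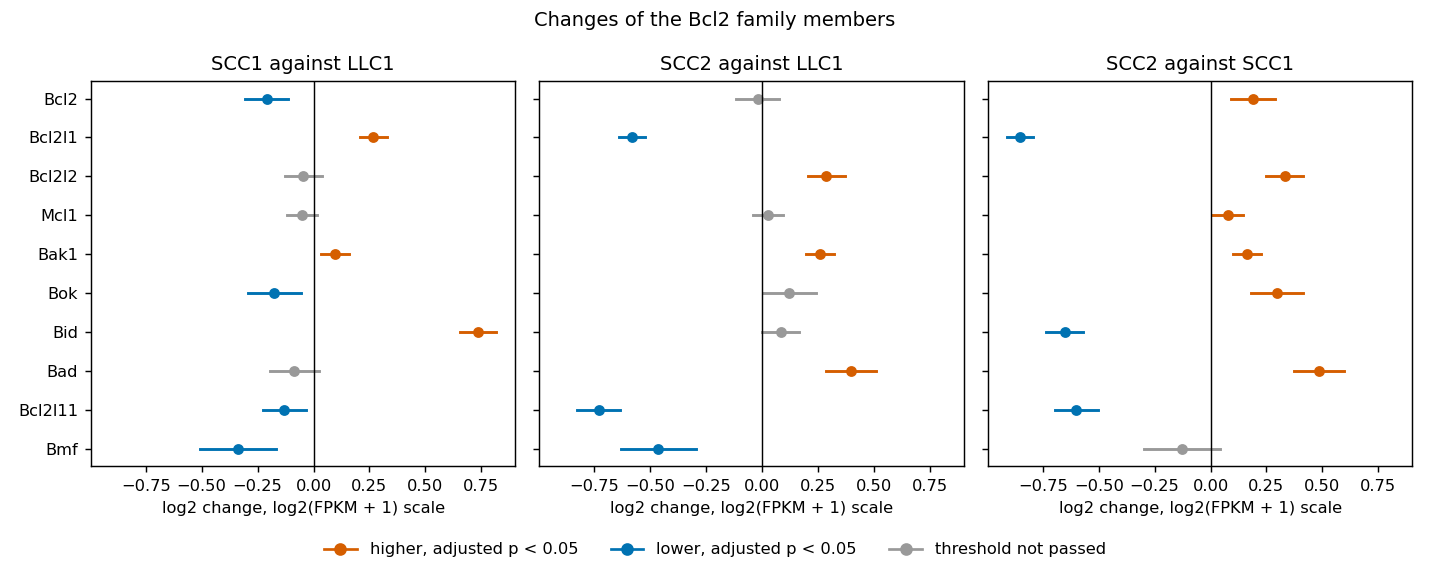
Log2 change of each member on the log2(FPKM + 1) scale with its 95% interval from limma, in SCC1 against LLC1, SCC2 against LLC1 and SCC2 against SCC1 (orange higher and blue lower at an adjusted p under 0.05, grey not past it). The widest changes are those of Bid in SCC1 (0.74), Bcl2l11 in SCC2 (-0.73) and Bcl2l1 in SCC2 against SCC1 (-0.85).

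Counted over the set in SCC1 against LLC1, 3 members rose (Bcl2l1, Bak1 and Bid) and 4 fell (Bcl2, Bok, Bcl2l11 and Bmf), or 7 of 10, where 70.1% of all tested genes passed the same threshold, 39.2% as higher and 30.9% as lower. In SCC2 against LLC1, 3 rose (Bcl2l2, Bak1 and Bad) and 3 fell (Bcl2l1, Bcl2l11 and Bmf), or 6 of 10 beside 67.6% of all tested genes (34.7% higher and 32.9% lower). Between the subclones, 6 rose and 3 fell in SCC2 against SCC1, or 9 of 10 beside 76.3% (37% higher and 39.4% lower). The libraries did not overlap for 8 members in SCC1 against LLC1, 8 in SCC2 against LLC1 and 9 in SCC2 against SCC1, beside 72.3%, 70.7% and 77.9% of all tested genes. These counts are near those of the whole table, so the number of members called says nothing particular about the family. They include Bmf, whose calls against LLC1 carry no weight. The comparisons with LLC1 share its 3 libraries. The median change of the members was -0.07 in SCC1 and 0.05 in SCC2 against LLC1, where the median over all tested genes was 0.03 and 0.01, and in SCC2 against SCC1 it was 0.12 against 0.00 over all genes.

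With a change of 1.5-fold or more asked for as well, 1 member was called in SCC1 against LLC1 (Bid), beside 6.54% of all tested genes (2.11% higher and 4.43% lower), and 1 in SCC2 against LLC1 (Bcl2l11), beside 5.74% (1.65% higher and 4.09% lower). There were 3 in SCC2 against SCC1 (Bcl2l1, Bid and Bcl2l11, all lower), beside 11.9% (5.26% higher and 6.64% lower). Bcl2l1 lay just short of that fold in SCC2 against LLC1. In limma-voom on the fragments worked back, no pseudocount of 1 FPKM narrows the change. There the same fold against LLC1 was passed by 2 members in SCC1 (Bid and Bmf), beside 1051 of the 10519 tested genes. In SCC2 it was passed by 3 (Bcl2l1, Bcl2l11 and Bmf), beside 967 of 10519. The changes were 0.84 for Bid in SCC1, and -0.62 for Bcl2l1, -0.91 for Bcl2l11 and -0.89 for Bmf in SCC2. These calls of Bmf carry no weight.

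Summed by role, the members shifted in SCC2. The survival genes totalled 54.4 ± 0.280 FPKM in SCC1 and 48.1 ± 1.43 FPKM in SCC2, against 52.7 ± 0.766 FPKM in LLC1 (SD, n = 3 each). The effectors totalled 52.8 ± 1.148 FPKM in SCC1 and 61.9 ± 1.64 FPKM in SCC2, against 53.9 ± 1.79 FPKM in LLC1, and the BH3-only genes 33.5 ± 1.58, 34.9 ± 1.14 and 31.5 ± 0.675 FPKM in SCC1, SCC2 and LLC1. As a share of the set, survival genes made up 38.6% ± 0.550 in SCC1 and 33.2% ± 0.487 in SCC2, against 38.2% ± 0.562 in LLC1. All 3 SCC2 libraries were below all others in that share and above all others in the share of effectors, whereas the shares of SCC1 and LLC1 overlapped. Since the members were chosen with results in view, no test was made of these sums. They describe transcripts and not protein, and Bax, the most abundant effector transcript, lies outside the set. Bax alone had 194 ± 4.98 FPKM in SCC1 and 145 ± 1.502 FPKM in SCC2, against 158 ± 8.90 FPKM in LLC1. It was thus above the summed effectors of the set in each line, and lowest in SCC2, where that sum was highest. With Bax added to the line means, SCC2 would have neither the smallest survival share nor the largest effector share. The shifts in share therefore hold only for the set without Bax.

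**Figure D3:**
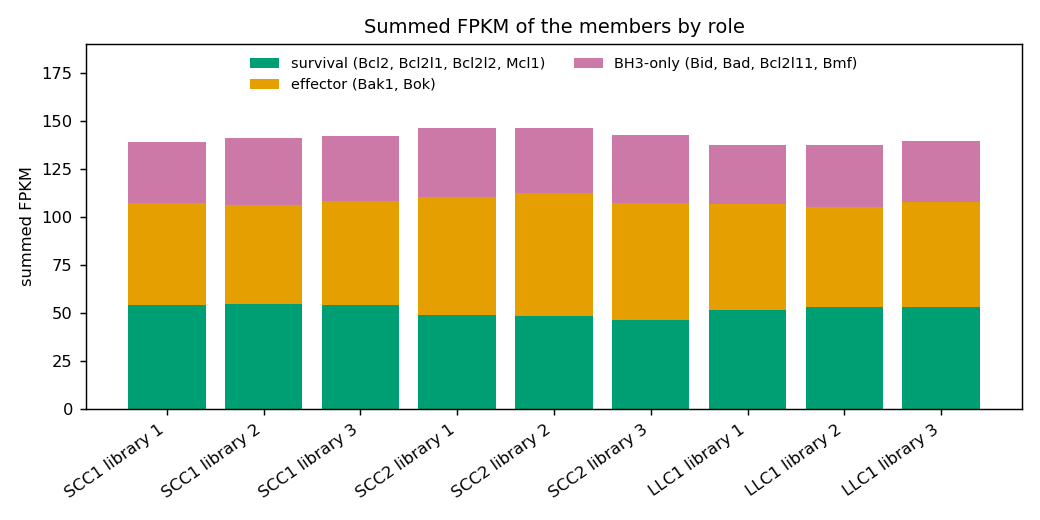
Summed FPKM of the survival (Bcl2, Bcl2l1, Bcl2l2, Mcl1), effector (Bak1, Bok) and BH3-only (Bid, Bad, Bcl2l11, Bmf) members in each library, stacked, with the axis starting at 0. The survival part is smallest in the 3 SCC2 libraries, at a mean of 48.1 FPKM.

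Within the survival genes the make-up differed between lines. The ratio of Bcl2l1 to Mcl1 FPKM was 1.52 ± 0.0482 in SCC1 and 0.765 ± 0.0127 in SCC2, against 1.20 ± 0.00674 in LLC1 (SD, n = 3 each). Bcl2l1 therefore had more FPKM than Mcl1 in SCC1 and LLC1 and less in SCC2. The ratio of Bcl2l1 to Bcl2 was 2.64 ± 0.0428 in SCC1 and 1.22 ± 0.0346 in SCC2, against 1.85 ± 0.120 in LLC1. The ratio of Bcl2l1 to Bcl2l11, a survival gene and the BH3-only gene whose protein it binds, was 4.61 ± 0.0648 in SCC1 and 4.17 ± 0.0923 in SCC2, against 3.41 ± 0.205 in LLC1. It was above LLC1 in all libraries of both subclones: in SCC1 Bcl2l1 was higher and Bcl2l11 slightly lower, and in SCC2 both were lower, Bcl2l11 by more.

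By level in FPKM, the order in SCC1 was Bak1, Bok, Bcl2l1, Bad, Mcl1, Bid, Bcl2, Bcl2l2, Bcl2l11 and Bmf, with Bok and Bcl2l1 overlapping between libraries. In SCC2 it was Bak1, Bok, Bad, Mcl1, Bcl2l1, Bcl2, Bcl2l2, Bid, Bcl2l11 and Bmf, with no overlap between neighbours. In LLC1 it was Bak1, Bok, Bcl2l1, Bad, Mcl1, Bcl2, Bcl2l2, Bcl2l11, Bid and Bmf, and the pairs of Bak1 with Bok, of Bcl2l1 with Bad and of Bcl2l11 with Bid overlapped. Bid thus stood at rank 6 in SCC1 and rank 8 in SCC2, against rank 9 in LLC1, and Bcl2l1 at rank 3 in SCC1 and rank 5 in SCC2, against rank 3 in LLC1.

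This order depends on the gene length behind FPKM. The length implied by fragments and FPKM, set on the median of 10170 genes, was 8560 bases for Mcl1 and 5406 bases for Bcl2l1, which is 2.504 and 2.105 times their longest GENCODE M21 transcripts of 3418 and 2568 bases. Only 7.10% of genes had an implied length over 2 times that of GENCODE, and for Bcl2, Bok, Bid and Bad the ratio was 0.973 to 1.04. With the GENCODE length in its place, a choice made after seeing the data, Mcl1 had 38.9 ± 0.972 fragments per kilobase, scaled to library size, in SCC1 and 41.3 ± 1.26 in SCC2, against 40.4 ± 0.138 in LLC1. Bcl2l1 then had 49.6 ± 0.444 in SCC1 and 26.5 ± 0.675 in SCC2, against 40.8 ± 0.105 in LLC1, so that Bcl2l1 ranked first in SCC1 and LLC1 and Mcl1 ranked first in SCC2. The survival genes then made up 55.8% ± 0.635 of the set in SCC1 and 49.0% ± 0.467 in SCC2, against 54.5% ± 0.466 in LLC1. The ratio of 1 gene's FPKM between lines is not touched by its length. A change on the log2(FPKM + 1) scale is touched slightly, since the pseudocount weighs more where FPKM is lower. On that scale Bcl2l1 in SCC2 against LLC1 lay just short of the 1.5-fold line (-0.583), and further short with chromosome medians removed (-0.537). Its FPKM ratio of 0.650, a pseudocount of 0.1 (-0.617) and limma-voom (-0.622) placed it past the line.

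Position was set beside the changes, because whole chromosomes shifted between the lines. Bmf, Bcl2l11 and Bcl2l1 lie on chromosome 2 (GRCm38, GENCODE M21, at 118528757 to 118549687, 128126038 to 128162547 and 152780668 to 152831728). The 856 tested genes of chromosome 2 had a median change of 0.10 in SCC1 and -0.04 in SCC2 against LLC1, and of -0.15 in SCC2 against SCC1. With chromosome medians removed, the change of Bcl2l1 was 0.17 in SCC1 against LLC1, -0.54 in SCC2 against LLC1 and -0.70 in SCC2 against SCC1. That of Bcl2l11 was -0.68 in SCC2 against LLC1 and that of Bmf -0.42. All of these passed the threshold, though the call of Bmf carries no weight. With the medians removed, 1 call was lost in each of SCC1 against LLC1 (Bak1) and SCC2 against SCC1 (Mcl1). Bid, on chromosome 6 at 120891930 to 120916853, kept a change of 0.59 in SCC1 against LLC1, where the median over chromosome 6 was 0.13.

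Most genes within 2 Mb of Bid in SCC1, and of Bcl2l1 and Bcl2l11 in SCC2, moved less than the member. Around Bid, 23 tested neighbours had a median change of 0.12 in SCC1 against LLC1 and 0 of them rose as far as Bid, the highest at 0.53. Around Bcl2l11, the median of 30 neighbours in SCC2 against LLC1 was -0.08, and 1 neighbour fell as far or further. Around Bcl2l1, it was -0.10 over 40 neighbours, and 1 fell as far. Around Bmf, it was -0.07 over 42 neighbours, of which 3 fell as far, but the change of Bmf itself carries no weight. Bok was a contrasting case. In SCC2 against LLC1, 20 of its 22 neighbours rose and 0 fell. The median of these neighbours, 0.21, was above the 0.12 of Bok itself. On chromosome 1 as a whole, 58.6% of tested genes rose and 16.6% fell (median 0.14). Bak1 ran against its neighbours, of which 47 of 73 fell and 1 rose in SCC2 (median -0.14), while Bak1 rose by 0.26. On chromosome 17 as a whole, 57.9% of tested genes fell and 9.77% rose in SCC2 against LLC1 (median -0.13). The rise of Bcl2l1 in SCC1 against LLC1 went with its neighbours. Of these 40, 28 rose and 6 fell (median 0.16), and 14 rose as far as Bcl2l1 or further. On chromosome 2 as a whole, 50.8% of tested genes rose and 16.9% fell in SCC1 against LLC1.

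**Figure D4:**
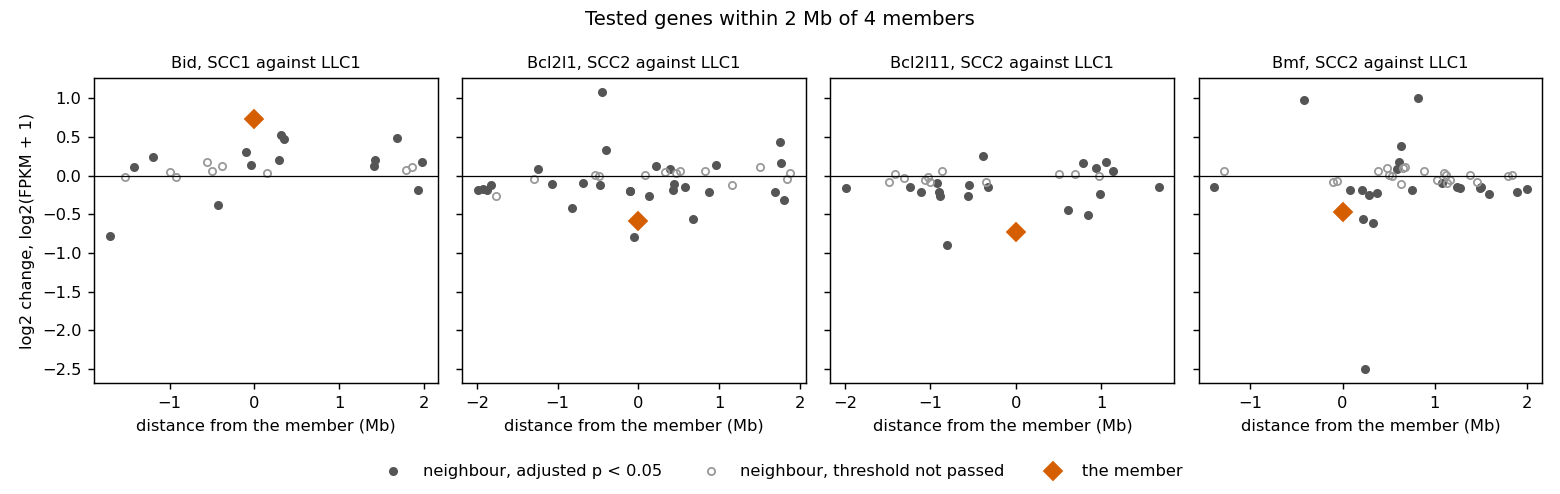
Log2 change on the log2(FPKM + 1) scale of tested genes within 2 Mb of 4 members, against their distance in Mb, for Bid in SCC1 against LLC1 and for Bcl2l1, Bcl2l11 and Bmf in SCC2 against LLC1 (filled circles past an adjusted p of 0.05, open circles not, diamond the member). Bid lies above all 23 of its neighbours, and Bcl2l11 lies below all but 1 of its 30. The fall of Bmf carries no weight, since the filter kept Bmf mainly for its LLC1 values.

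For the 3 members with the widest range between lines, the tested genes with the nearest pattern were found by the root mean square difference in log2(FPKM + 1) over the 9 libraries, after centring each gene on its own mean. Nearest to Bcl2l1 were Rprd1a (0.0244), Fam107b (0.0335) and Myh10 (0.0342). Rprd1a had 14.8 ± 0.191 FPKM in SCC1 and 7.53 ± 0.238 FPKM in SCC2, against 11.8 ± 0.193 FPKM in LLC1 (SD, n = 3 each). Among the nearest to Bid were Ccn4 (0.0510) and Mpp6 (0.0512), and Ccn4, which encodes a secreted matricellular protein, had 11.7 ± 0.255 FPKM in SCC1 and 7.10 ± 0.185 FPKM in SCC2, against 6.17 ± 0.144 FPKM in LLC1. Nearest to Bcl2l11 were Kremen1 (0.0344), Cbx7 (0.0391) and Edil3 (0.0396). Kremen1, a receptor for Dkk1, had 29.7 ± 0.0731 FPKM in SCC1 and 18.97 ± 1.11 FPKM in SCC2, against 31.8 ± 0.773 FPKM in LLC1. The 9 libraries fall into 3 lines, so a near pattern is mainly 3 line means that match.

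Among the p53-target relatives, Pmaip1 changed by more than any of the 10 members. Pmaip1, which encodes the Mcl1-binding BH3-only protein NOXA, had 9.19 ± 0.225 FPKM in SCC1 and 0.730 ± 0.0667 FPKM in SCC2, against 2.27 ± 0.385 FPKM in LLC1 (SD, n = 3 each). Bax had 194 ± 4.98 FPKM in SCC1 and 145 ± 1.502 FPKM in SCC2, against 158 ± 8.90 FPKM in LLC1, and Bbc3, which encodes PUMA, had 8.47 ± 0.430 and 8.38 ± 0.278 FPKM, against 7.28 ± 0.544 FPKM. Pmaip1 and Bax rose in SCC1 and fell in SCC2, and Bbc3 rose in both (limma adjusted p = 0.00480 in SCC1 and 0.00773 in SCC2). Of 16 further family genes listed, 8 were tested, these 3 included, and of the 8, 4 rose and 2 fell in SCC1 (median change 0.08), and 4 rose and 3 fell in SCC2 (median 0.06). The background for this list and the 7 below is that, of all tested genes, 39.2% rose and 30.9% fell in SCC1 against LLC1 (median 0.03), and 34.7% rose and 32.9% fell in SCC2 against LLC1 (median 0.01). At these sizes no list is called particular from its count. Bcl2l13, a mitochondrial outer membrane relative known as a mitophagy receptor, rose in SCC1 and fell by 0.17 in SCC2 (limma adjusted p = 0.00237).

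Downstream of the mitochondria, 2 of 7 tested apoptosome and caspase genes rose and 1 fell in each subclone, with median changes of 0.03 in SCC1 and -0.02 in SCC2, fewer calls than 70.1% and 67.6% of all tested genes would give. Cycs, the cytochrome c gene, rose by 0.32 in SCC1 and 0.10 in SCC2. Casp8, which cuts Bid, rose by 0.29 in SCC2 (limma adjusted p = 4.57e-05), and its change of 0.01 in SCC1 did not pass. Of 7 inhibitors of apoptosis and their antagonists, 3 rose and 1 fell in SCC1 (median 0.04), and 2 rose and 2 fell in SCC2 (median 0.02), or 4 of 7 called in each beside the same 70.1% and 67.6%. Birc5 (survivin) rose by 0.24 in SCC1 and 0.15 in SCC2. Htra2, a protease released from mitochondria, fell by 0.25 in SCC2, with a change of 0.02 in SCC1 that did not pass, and Birc6, a giant inhibitor of apoptosis, rose by 0.14 in SCC1 and fell by 0.17 in SCC2.

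Partners of the family in mitochondrial membranes were mostly higher in both subclones, 6 of 7 tested in SCC1 and 6 of 7 in SCC2, with 0 lower (medians 0.15 and 0.12), where 39.2% and 34.7% of all tested genes were called higher. Mtch2, the outer membrane docking site of cut Bid, had 49.2 ± 0.673 FPKM in SCC1, against 36.4 ± 0.743 FPKM in LLC1, a rise of 0.42, and rose by 0.08 in SCC2. Vdac1, a channel of the outer membrane, rose by 0.34 in SCC1 and 0.07 in SCC2. The fission GTPase Dnm1l rose by 0.11 in SCC1 and 0.36 in SCC2, and the channel Vdac3 by 0.22 in SCC1 and 0.39 in SCC2. Of 6 tested genes of the death receptor complex, 3 rose and 1 fell in SCC1 (median 0.11), and 4 rose and 1 fell in SCC2 (median 0.21), beside the same 39.2% higher and 30.9% lower of all tested genes in SCC1 and 34.7% and 32.9% in SCC2. Cflar, the caspase-8 inhibitor c-FLIP, fell by 0.34 in SCC1 and rose by 0.15 in SCC2 against LLC1, and it rose by 0.49 in SCC2 against SCC1 (limma adjusted p = 5.17e-07). The adaptor Tradd rose by 0.22 in SCC1 and 0.26 in SCC2, and the kinase Ripk1 by 0.22 in SCC1 and 0.32 in SCC2. Tnfrsf1a, the main tumour necrosis factor receptor, fell by 0.18 in SCC2 against SCC1 and by 0.13 in SCC2 against LLC1.

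Of 14 kinases and 14-3-3 proteins that act on Bad, 9 rose and 2 fell in SCC1 (median 0.08), and 8 rose and 4 fell in SCC2 (median 0.07), or 11 and 12 called of 14 where 70.1% and 67.6% of all tested genes were. Pim3, a kinase that phosphorylates Bad, fell to 20.7 ± 0.817 FPKM in SCC2, against 39.0 ± 0.849 FPKM in LLC1 (limma adjusted p = 6.40e-10), and fell by 0.10 in SCC1. The 14-3-3 genes Ywhah and Ywhaz moved differently: Ywhah rose by 0.10 in SCC1 and 0.41 in SCC2, while Ywhaz rose by 0.23 in SCC1 and fell by 0.19 in SCC2, with a change of -0.42 in SCC2 against SCC1. The kinase gene Akt1 rose by 0.24 in SCC1 and 0.26 in SCC2. Of 6 tested genes for turnover of the Mcl1 and Bim proteins, 2 rose in SCC1 and 5 rose in SCC2, with 0 lower in either (medians 0.03 and 0.24), beside 39.2% and 34.7% of all tested genes called higher. Huwe1, a ubiquitin ligase of Mcl1, rose by 0.15 in SCC1 and 0.26 in SCC2, Usp9x, which removes ubiquitin from Mcl1, by 0.31 in SCC1 and 0.22 in SCC2, and Gsk3b, which marks Mcl1 for degradation, by 0.34 in SCC2, with a change of -0.06 in SCC1 that did not pass.

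Of 13 transcription factors known to act on genes of the family, 4 rose and 5 fell in SCC1 (median -0.03). In SCC2, 6 rose and 2 fell (median 0.03). Of all tested genes, 39.2% rose and 30.9% fell in SCC1, and 34.7% rose and 32.9% fell in SCC2. The counts in SCC1 include Mitf and Foxo1, which entered the test through the lines where they are higher. Stat3, a factor known to act on Bcl2l1 and Mcl1, fell by 0.62 in SCC2, to 13.7 ± 0.526 FPKM, against 21.5 ± 0.732 FPKM in LLC1 (SD, n = 3 each). It fell by 0.43 in SCC1 as well (limma adjusted p = 2.22e-06), where Bcl2l1 rose. Whether Stat3 had a part in the changes of Bcl2l1 was not tested. Myc rose by 0.36 in SCC1 and 0.32 in SCC2, and Trp53 by 0.31 in SCC1 and 0.15 in SCC2. Stat5a rose by 0.62 in SCC2 against SCC1, at low levels of 2.09 ± 0.108 FPKM in SCC2, against 1.01 ± 0.138 FPKM in SCC1. Mitf averaged 0.685 ± 0.0273 FPKM in SCC2, against 1.49 ± 0.0730 FPKM in SCC1, and since only the 3 SCC1 libraries reached 1 FPKM, it entered the test through the line where it is high and its call carries no weight. The FOXO genes, whose proteins act on Bcl2l11, were also looked at after their values were seen. Foxo3 fell by 0.12 in SCC1, and its change of -0.04 in SCC2 did not pass. Foxo1 averaged 0.846 ± 0.0875 FPKM in SCC1, against 1.05 ± 0.0666 FPKM in LLC1. It entered the test through the lines where it is higher, so its fall of 0.15 in SCC1 carries no weight. The change of Foxo1 in SCC2, 0.02, did not pass. Foxo4 fell by 0.16 in SCC2, and its change of -0.03 in SCC1 did not pass.

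**Figure D5:**
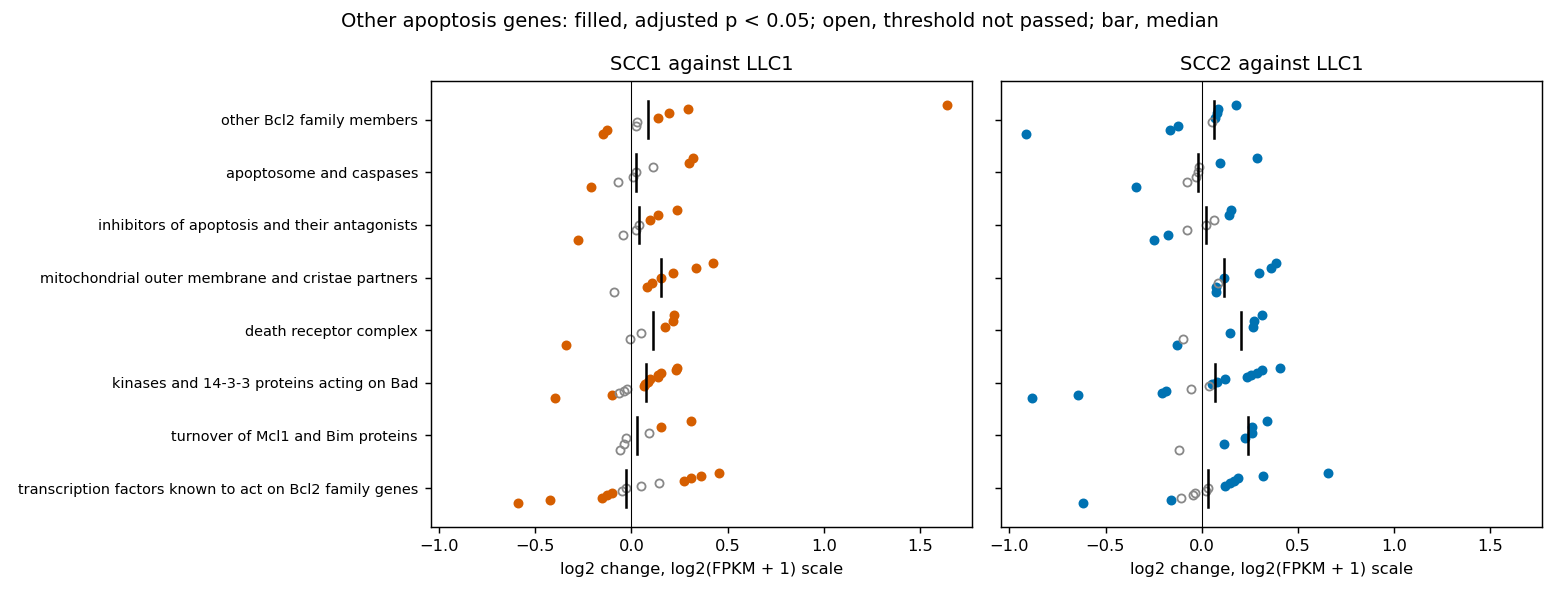
Log2 change on the log2(FPKM + 1) scale of the tested genes of 8 lists around the family, in SCC1 against LLC1 and SCC2 against LLC1 (filled circles past an adjusted p of 0.05, open circles not, vertical bar the median of the list). Pmaip1 is the point farthest from 0 among the other family members in both comparisons, at 1.64 in SCC1 and -0.91 in SCC2.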

How the data were processed

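Per the series' design text, the authors trimmed reads with Trimmomatic, aligned them with hisat2 and computed FPKM with cufflinks, and the table they deposited holds FPKM per gene symbol and library. Builds GRCm38 and mm10 come from the submitters' processing notes, and the aligner's version and the annotation were not given in the sources used here. The labels and the design text name different library kits and extractions.

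Sample titles gave the groups. Genes with at least 1 FPKM in at least 3 of 9 libraries (10519) were tested on log2(FPKM + 1), pseudocount 1, with limma 3.58.1 in R 4.3.3 (trend and robust options, 1 fit of all libraries), with two-sided p-values adjusted by Benjamini-Hochberg over these genes and a threshold of 0.05. A further rule asked for a 1.5-fold change. All 12270 genes above 0 in every library gave whole fragments within 0.001. Pairs of libraries of a line differed by 1.19 to 1.69 in chi-square per gene, above counting noise. Figures and sequences used Python 3.11.15. The fit and the fragment step were tested on simulated data.

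The genes named are the 10 members, up to 2 called genes with the smallest adjusted p per list and comparison, the 3 p53 targets and the 3 nearest patterns of 3 members, less some genes that are not reported here. Members and lists were chosen with earlier results of these data known. Replicate numbers of the titles, which no label explains, had correlations of deviations of -0.0683 to 0.0890 between same-numbered libraries and were not treated as pairs.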

Additional observations from a re-analysis of the deposited data

Results flagged for a closer look

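Bcl2l1 was the member that changed in opposite directions in the subclones, with both changes against LLC1 past the threshold. Its mean was 23.1 ± 0.207 FPKM in SCC1 and 12.3 ± 0.314 FPKM in SCC2, against 18.99 ± 0.0490 FPKM in LLC1 (SD, n = 3 each). The difference between the subclones, tested as SCC2 against SCC1 in the same fit, was -0.851 on the log2(FPKM + 1) scale (limma adjusted p = 9.60e-11), and all 3 SCC2 libraries lay below all 3 SCC1 libraries.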

How the results depend on the processing

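Of 534 values of a member's change under an alternative, 511 kept their direction and side of the threshold. Those of Bcl2l1, Bcl2l2 and Bad did so in every comparison and alternative, as did Bid in SCC1 against LLC1 and SCC2 against SCC1, and Bcl2l11 in SCC2 against both other lines. Sign turns were all in values that did not pass: with chromosome medians removed, Mcl1 (-0.0249) and Bok (-0.0122) in SCC2 against LLC1 and Bmf (0.0197) in SCC2 against SCC1, and without LLC1 replicate 3 Bcl2 in SCC2 against LLC1 (-0.0659 to 0.0113 with 1 library left out). Of calls, 10 were gained. In SCC2 against LLC1 these were Bcl2 (-0.15) and Bid (0.18) with chromosome medians removed, Bid also with quantile normalization (limma adjusted p = 0.0298), without the trend and robust options (0.0423) and without SCC2 replicate 3 (0.0483), and Bok with limma-voom (0.0207) and without SCC1 replicate 2 (0.0347), SCC1 replicate 3 (0.0424) or SCC2 replicate 3 (0.0311). In SCC1 against LLC1 Mcl1 was called with quantile normalization (0.0480). The number of members called ran over all alternatives from 5 to 7 in SCC1 against LLC1, from 4 to 8 in SCC2 against LLC1 and from 8 to 9 in SCC2 against SCC1. The counts of 5 and 4 came from genes with a mean of at least 5 FPKM, where Bcl2l11 and Bmf were not tested. Of these 7855 genes, 5792 were called in SCC1 against LLC1 and 5556 in SCC2 against LLC1. With chromosome medians removed, 8 members and 6191 of 10501 tested genes were called in SCC2 against LLC1, beside 7112 of 10519 genes without that step.

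Genes called at 1.5-fold in SCC1 against LLC1 were 364 among genes with a mean of at least 5 FPKM and 1051 with limma-voom, beside 688. In SCC2 against LLC1 they were 289 and 967, and 921 with a pseudocount of 0.1, beside 604, and in SCC2 against SCC1 756 at 5 FPKM, beside 1251. Members at that fold were 2 with limma-voom in SCC1 against LLC1, Bmf included, beside 1. In SCC2 against LLC1 they were 3 with limma-voom and again at a pseudocount of 0.1, each time with Bmf included. They were 2 with quantile normalization, 0 among genes of at least 5 FPKM, where Bcl2l11 and Bmf were not tested, and 1 to 2 with a library left out, beside 1. The calls of Bmf against LLC1 carry no weight. In SCC2 against SCC1 there was 1 with chromosome medians removed, beside 3. A replicate block called 7306 genes in SCC1 against LLC1, 7046 in SCC2 against LLC1 and 7962 in SCC2 against SCC1, and 7, 6 and 9 members. Bmf, with 72 fragments in its lowest library, is the member that depth limits most. For the shifts without a stated reason the cause was not tested.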
